A study of Drosophila melanogaster with 2 samples.

Results

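The regions described here are CG4360-eGFP binding peaks whose summit lay outside every annotated gene and over 500 bp from every annotated transcript start. They were taken from the conservative list of peaks that repeated between replicates, on the major chromosome arms of the dm6 assembly, with transposable elements left out of the genes. The rule left 789 of 5692 peaks, which is 13.9% (exact binomial 95% interval 12.97 to 14.8). The other classes were 2353 promoter peaks, with a summit within 500 bp of a start, 1909 intronic peaks and 641 exonic peaks. The samples were whole Drosophila melanogaster embryos of strain CG4360-GFP, aged 0 to 24 h, with an insertion that makes CG4360 fused to enhanced GFP. Chromatin was sonicated to 200 to 800 bp and precipitated with an antibody against GFP, per the experiment's description; the labels' antibody field names CG4360. There was 1 group with 2 biological replicates and no untagged or treated group among the files, so the peaks were compared with other peaks and other positions, not with another condition. Whole embryos over this range mix all stages and cell types of embryogenesis, and the labels do not name the promoter that drives the fusion.

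CG4360 is a protein of the C2H2 zinc finger type, a large family of factors that read DNA through small zinc-bound modules. In flies, DNA between genes holds enhancers, silencers and insulators, and developmental control genes are often set in wide gaps that hold many such elements. A gap has divergent flanks where both neighbouring genes start on the side of the gap, convergent flanks where both end there, and tandem flanks where one starts and the other ends there.

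The word CAACAAC, 2 CAA units and 1 further base, with its reverse complement GTTGTTG, was the 7-base word that most set these summits apart from the sequence around them. Some of the strongest peaks that hold it are shown because they carry the range of arrangements found, from separated copies to unbroken repeats. Each runs from 50 bp before to 50 bp after the summit, 5′ to 3′, from the RefSeq release 6 genome, with every copy of the word or its reverse complement in capitals.
Tet/spz5, chr3L:2881727-2881827, minus strand: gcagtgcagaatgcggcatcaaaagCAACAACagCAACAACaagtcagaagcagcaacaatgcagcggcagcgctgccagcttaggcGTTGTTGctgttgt
mtSSB/tara, chr3R:16221692-16221792, minus strand: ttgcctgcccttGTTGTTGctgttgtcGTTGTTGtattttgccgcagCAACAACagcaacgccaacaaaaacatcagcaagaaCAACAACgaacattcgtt
scyl/Dyro, chr3L:11261277-11261377, plus strand: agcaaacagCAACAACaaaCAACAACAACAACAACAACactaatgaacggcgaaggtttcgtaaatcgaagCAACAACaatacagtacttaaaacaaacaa
Cyt-c1L/eEF1gamma, chr3R:29205231-29205331, minus strand: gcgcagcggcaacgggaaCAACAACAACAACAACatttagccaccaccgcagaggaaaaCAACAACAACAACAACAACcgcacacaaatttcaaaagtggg
CG17154/vers, chr3L:12090307-12090407, minus strand: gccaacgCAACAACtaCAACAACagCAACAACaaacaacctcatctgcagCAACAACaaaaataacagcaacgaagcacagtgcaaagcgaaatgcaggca
cad/Pomp, chr2L:20783179-20783279, plus strand: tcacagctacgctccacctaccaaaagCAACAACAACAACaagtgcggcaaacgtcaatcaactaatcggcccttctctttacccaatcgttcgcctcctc
The windows near scyl, Cyt-c1L and cad hold perfect CAA runs of 22, 21 and 15 bases. The windows at Tet, mtSSB and CG17154 hold separate copies, and the longest perfect run in each is 9 bases.

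The 3 strongest peaks without the word on arms 2L and X are shown for contrast. Capitals mark the 4 next best words of the word scan given below, which have a CAG unit in place of a CAA unit or a different last base, or their reverse complements.
nompC/H15, chr2L:5403643-5403743, plus strand: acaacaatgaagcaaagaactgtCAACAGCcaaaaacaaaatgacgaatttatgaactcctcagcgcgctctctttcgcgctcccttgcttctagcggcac
salm/sala, chr2L:11446217-11446317, minus strand: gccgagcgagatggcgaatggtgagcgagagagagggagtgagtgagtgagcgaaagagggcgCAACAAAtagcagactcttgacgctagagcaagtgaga
Ste12DOR/Ste:CG33247, chrX:14038234-14038334, plus strand: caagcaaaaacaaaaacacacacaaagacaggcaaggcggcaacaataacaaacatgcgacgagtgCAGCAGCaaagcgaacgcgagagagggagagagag
Each of these windows held 1 copy of a related word. The windows near salm and on X also held GAGAGAG or its reverse complement, and the window near H15 did not. The window on X lies between genes of the repeated Stellate family.

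The signal value that the authors deposited for each peak has no stated scale, and it is used only to rank and compare peaks. The number of reads behind it is unknown, so no interval that rests on read depth can be given, and the intervals printed cover counting error in numbers of peaks only. Intergenic signal values ran from 2.63 to 1492, with a median of 96.5 (order-statistic 95% interval 92.4 to 102.0). A ranked call overlapped all 789 peaks in replicate 1 and 786 in replicate 2. In the 756 peaks with a signal of 30 or more, the value was close to the sum of the 2 replicate values, with a median ratio of 0.995 (quartiles 0.949 and 1.03). The other 33 peaks stood apart, with a median ratio of 0.0683. Each of the 33 shared its call in both replicates with another peak of the list, and its nearest neighbour was stronger, at a median distance of 203 bp. The list therefore counts 1 replicate region more than once in these places. Every class comparison below was also made without peaks of signal under 30, and no call was lost or turned.

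Intergenic peaks were weaker than promoter peaks. The median signal was 96.5 in intergenic, 101.8 in intronic, 99.7 in exonic and 111.2 in promoter peaks. By definition 50% of all peaks lie above the list median of 103.9. Of the intergenic peaks 359 of 789 did (45.5%, 41.98 to 49.05), against 1253 of 2353 promoter peaks (53.3%), an odds ratio of 0.733 (0.623 to 0.862; 2-sided Fisher exact test, adjusted p = 0.000477). In the list of replicate 2 alone the same odds ratio was 0.80 and missed the threshold (Fisher exact, adjusted p = 0.054). Against intronic peaks (926 of 1909, 48.5%) the odds ratio was 0.886 (0.750 to 1.05; Fisher exact, adjusted p = 0.216), so a difference was not detected. Of the intergenic peaks 10 were among the 100 strongest of the whole list, and 113 were among the 1000 strongest, beside their share of 13.9% of the whole list.

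Replicates gave similar ranks to these peaks. Replicate 1 had the higher value in 481 of the 786 peaks with both, with a median ratio of replicate 1 to replicate 2 of 1.13 (quartiles 0.863 and 1.41). Across those peaks Spearman's rho was 0.712, as a description, since the peaks share libraries. The list was also selected for reproducibility between the replicates, which favours similar ranks, so rho is no independent measure of their agreement. Both replicate lists held a thresholded peak that overlapped reciprocally by 0.5 or more for 305 of 789 peaks, which is 38.7% (35.2 to 42.2), beside 40.7% of all conservative peaks. Another 168 were matched in replicate 1 alone, 89 in replicate 2 alone and 227 in neither. Intronic peaks were matched in both lists at 39.3%, and the odds ratio of 0.974 (0.821 to 1.15; Fisher exact, adjusted p = 0.908) showed no difference past the threshold. Promoter peaks were matched at 43.1%, an odds ratio of 0.832 (0.706 to 0.981; Fisher exact, adjusted p = 0.0483). That call was lost in 3 of 9 alternatives and turned to 1.07 at a reciprocal overlap of 0.8 and to 1.11 at an IDR of at most 0.001.

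**Figure D1:**
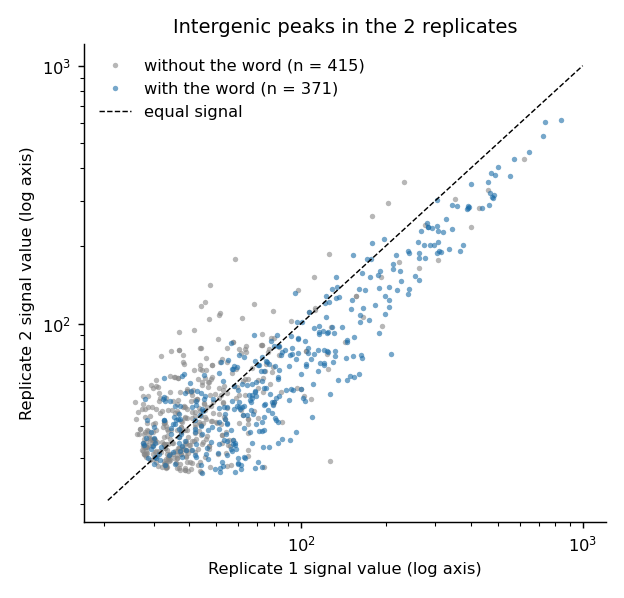
Signal value of each intergenic peak in replicate 1 (x, log axis) and replicate 2 (y, log axis), for the 786 peaks with a call in both. Blue points are the 371 peaks with the repeat word at the summit and grey points the others; the strongest peaks, with 839 in replicate 1 and 617 in replicate 2 at the top, are mostly blue and lie below the dashed line of equal signal.

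The CAA word was centred on the summits. It was present within 50 bp of the summit in 371 of 789 intergenic peaks, which is 47.0% (43.5 to 50.6), beside 45.1% of all conservative peaks. Windows of the same size centred 500 bp to either side held it in 62 of 1578 cases, which is 3.93% (3.03 to 5.01). The odds ratio was 21.7 (16.2 to 29.0; 2-sided Fisher exact test, p = 1.54e-140), and it stayed between 16.0 and 43.6 in the 14 alternatives tried. Intergenic relaxed calls, the ranked calls that missed the reproducibility threshold but met the same position rule, held the word at 4.20%. The nearest copy lay within 300 bp of the summit in 510 peaks, and its centre was a median of 20 bp from the summit.

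**Figure D2:**
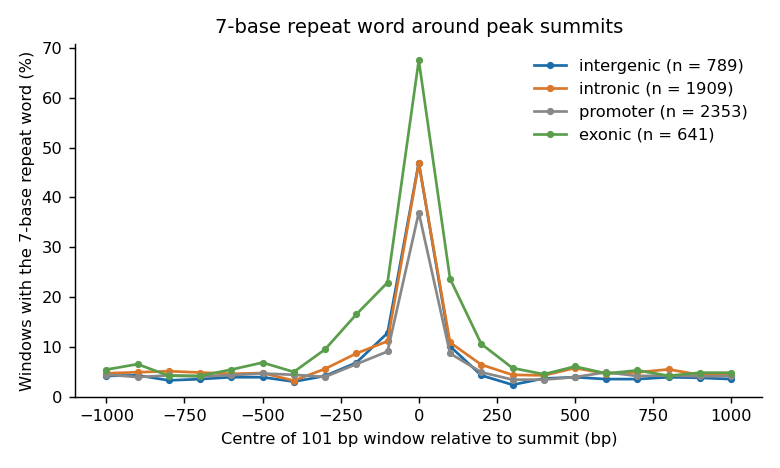
Share of windows, 50 bp to each side of their centre, that hold the repeat word (y, percent) against the position of the window relative to the summit (x, bp), for intergenic, intronic, promoter and exonic peaks. All 4 classes peak at the summit, at 47.0%, 46.9%, 37.0% and 67.6%, and the intergenic share is 12.8% and 10.1% at 100 bp to the left and right.

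The word was more frequent at intergenic than at promoter summits, and no difference from intronic summits was detected. Exonic summits had the highest share, 433 of 641 (67.6%), which was not tested against the intergenic share. Promoter summits held it in 870 of 2353 cases (37.0%), an odds ratio of 1.51 in favour of intergenic summits (1.28 to 1.78; Fisher exact, adjusted p = 3.27e-06). Intronic summits held it in 895 of 1909 cases (46.9%), an odds ratio of 1.01 (0.852 to 1.19; Fisher exact, adjusted p = 0.966). In 4 of 11 alternatives the estimate fell to 1 or below without passing the threshold. A scan of all words of 7 bases found 0 that differed between intergenic and intronic summits after adjustment (0% of the words), with 343 at an unadjusted Fisher p under 0.05 and a smallest adjusted p of 0.356. Mean GC content was 42.7% ± 9.19 (SD, n = 789 windows) at intergenic summits, 42.4% at intronic summits and 43.9% at promoter summits, and it was 39.5% in the intergenic flanks.

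Peaks with the word were the stronger ones. Their median signal was 133.7 (quartiles 91.7 and 249.3) over 371 peaks, and it was 80.1 (63.8 and 106.1) over the 418 without the word. The replicate medians were 77.1 and 60.1 with the word, and 40.5 and 42.6 without it. In 5 groups of equal size by signal the share with the word was 15.8%, 28.5%, 47.8%, 60.1% and 82.9% from weakest to strongest, while the flanks stayed between 2.53% and 4.75%. Longer perfect CAA runs went with stronger peaks as well: the median signal was 79.6 for runs of 6 bases or fewer, 110.6 for 7 to 9, 131.2 for 10 to 12, 169.2 for 13 to 18, and 227.8 for the 41 peaks with 19 or more. These are descriptions across peaks of 1 list, and the longest run was 33 bases. Of the peaks with the word 51.5% were matched in both replicate lists, against 27.3% of those without it. Signal moved with both, and its part in this difference was not tested.

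**Figure D3:**
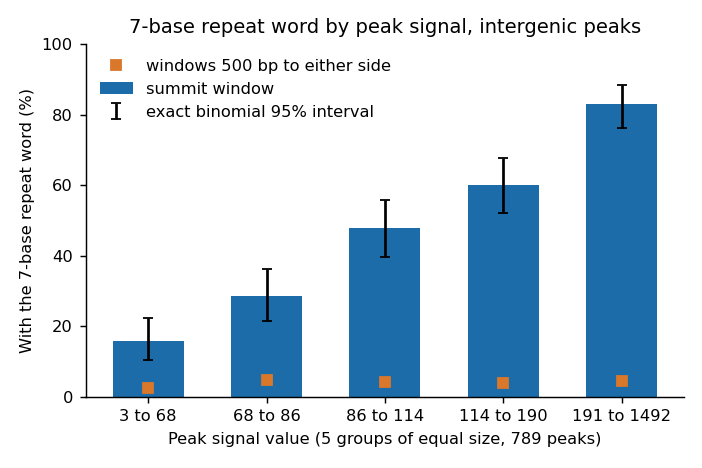
Share of intergenic peaks with the repeat word at the summit (bars, percent, with exact binomial 95% intervals) by 5 groups of equal size of the peak signal value (x), and the share of windows 500 bp to either side that hold it (orange squares). The bars climb from 15.8% to 82.9% while the squares stay below 4.75%.

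Other words followed the same pattern of bases. In the scan against the flanks 86 words were more frequent at intergenic summits (1.05%) and 19 were less frequent (0.232%), by 2-sided Fisher exact tests with adjustment over all words. By the same exact test, the best words after CAACAAC that were not shifted copies of it were CAGCAAC (19.9% against 3.36%, odds ratio 7.15, adjusted p = 6.61e-35), CAACAGC (16.9% against 2.41%, 8.22, 3.40e-32), CAGCAGC (13.4% against 2.60%, 5.82, 2.99e-20) and CAACAAA (17.6% against 5.07%, 4.004, 7.44e-19). With flanks at 1000 bp the counts were 85 and 4. With flanks at 500 bp the first of the less frequent words were CAAATTA (1.27% against 4.94%, odds ratio 0.247), AAATCGT (0.112), TTATAAA (0.358), ATTTTAA (0.451) and ATAATAT (0.402).

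Of 28 known fly motifs, searched on both strands, 0 were more frequent than in the flanks after adjustment (0%) and 4 were less frequent (14.3%), but in 6 of 12 alternatives a motif rose past the threshold. The homeodomain core, a C or T, then TAAT, then T or G, then A or G, which many developmental factors share, was in 11.3% of summit windows and 18.95% of flanks (odds ratio 0.544, Fisher exact, adjusted p = 3.57e-05), and in 16.9% of intergenic relaxed calls. The TATA box, TATA, A or T, A, A or T, stood at 9.89% against 14.3% (Fisher exact, adjusted p = 0.0305; 10.6% of relaxed calls). The BEAF-32 insulator site, CGATA and then A or T, stood at 4.31% against 7.22% (0.0364; 6.28%), and the STAT site, TTC and GAA with 3 bases between, at 1.39% against 3.42% (0.0364; 2.38%). The homeodomain core kept its call in all 12 alternatives, STAT in 8, the TATA box in 7 and the BEAF-32 site in 3. The repeat GAGAGAG, which GAGA factor binds, was in 3.68% of summits and 1.90% of flanks (odds ratio 1.97, 1.17 to 3.30; Fisher exact, adjusted p = 0.0644), and it was the motif past the threshold in the 6 alternatives, with odds ratios of 1.81 to 2.47. In the wider window, 100 bp on either side, the CA repeat, CACACACA, passed too (odds ratio 1.78). The early embryonic motif of Zelda, CAGGTA, was in 1.52% and 2.09% (Fisher exact, adjusted p = 0.626). Intronic summits held the homeodomain core at 11.3%, the TATA box at 10.7%, the BEAF-32 site at 5.97%, STAT at 2.095% and GAGAGAG at 4.77%. These motif shares were not tested between intergenic and intronic summits.

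The strongest intergenic peaks lay beside genes of several kinds, and all 12 were in both replicate lists. The first lay on 3L between Tet, a dioxygenase of the TET family, at 2619 bp, and spz5, a ligand of the Spätzle family, at 1864 bp. Its signal was 1492, with 839 in replicate 1 and 617 in replicate 2, and the nearest start, 1037 bp away, was that of the non-coding gene lncRNA:CR44531. The second, on 2R between CG12464 and tei, had 1342 (737 and 602 in the replicates). The third, on 2R between wech, an adaptor at integrin attachment sites, and Coop, a corepressor of the Wnt pathway factor Pangolin, had 1238 (721 and 534). A further one on 2R between CG42808 and CG6191 had 1098 (646 and 464). All 4 had the word at the summit, and 3 of them lay on 2R.

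Genes of the Polycomb group, which keep developmental genes silent, flanked 2 of the 12. No list of Polycomb genes was counted, so no share of all peaks or relaxed calls stands beside this. Both peaks lay in 1 stretch of 2R, with summits at 12991854 and 13019266, and are not separate examples of the group. A peak of 1058 (620.2 and 436.5) lay 2043 bp from the 5′ end of CG33798, the nearer flank, and 10860 bp from the 5′ end of Psc, a subunit of Polycomb repressive complex PRC1, and it was the strongest without the word. A peak of 806 (484 and 314) lay 11355 bp from the 3′ end of its paralogue Su(z)2, and the gap between Su(z)2 and CG13323 held 6 peaks with signals from 131.2 to 806.

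The remaining 6 of the strongest lay beside genes with roles in several cell functions. The peak of 989.9 (572 and 434 in the replicates) lay on 3R between mtSSB, a mitochondrial DNA-binding protein, and tara, a co-regulator of transcription. The peak of 907 (553 and 374) lay on 3L in the gap between the convergent genes scyl, an inhibitor of TOR signalling, and Dyro, with a perfect CAA run of 22 bases. The peak of 891 (499 and 403) lay on 3R between Cyt-c1L, a cytochrome c1 relative, and eEF1gamma, a translation elongation factor. In all 3 the word is printed above with the window. The peak of 870.2 (474 and 383) lay on 3L between CG17154 and vers. The peak of 865 (489.9 and 378) lay on 2R, 615 bp from the 5′ end of Shrm, an actin regulator, with the piRNA pathway gene tej on the other side. The peak of 817 (461 and 352.5) lay on 2L only 94 bp from the 3′ end of cad, the posterior homeodomain gene caudal. The word was present in 11 of the 12, and replicate 1 was above replicate 2 in each.

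The 5 strongest without the word included 3 near genes of developmental transcription factors. The peak between Psc and CG33798 is given above. Next came 786 (461.5 and 328), 587 bp from the 5′ end of the T-box gene H15, with the mechanosensory channel gene nompC on the other side. A peak of 697 (429.6 and 280.1) lay 653 bp from the 5′ end of salm, a zinc finger gene, and a peak of 636 (402 and 236) lay 9580 bp from the 5′ end of grn, a GATA factor gene. The other, at 675.5 (352 and 303), lay on X 8488 bp from Ste:CG33247, and reads from near-identical Stellate copies may not be placed uniquely.

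Where the peaks lay relative to genes was read against the 25049 intergenic relaxed calls. The median distance to the nearest transcript start was 3123 bp (quartiles 1428 and 6320, highest 40404) for peaks and 4169 bp for relaxed calls. A start lay within 2 kb of 283 of 789 peaks (35.9%, 32.5 to 39.3) and of 25.6% of relaxed calls, an odds ratio of 1.63 (1.41 to 1.89; Fisher exact, adjusted p = 1.18e-09). With only the strongest peak and the strongest relaxed call of each gap between protein-coding genes this turned, with 187 of 423 peaks against 1544 of 2782 calls and an odds ratio of 0.635 (Fisher exact, adjusted p = 6.72e-05). This alternative counts each gap once and also keeps only its strongest call, and which of these turned the direction was not tested. At the limit of the rule, the 3 nearest peaks beyond it lay 505 bp from a start each, with signals of 497, 131.1 and 88.1, and the 3 nearest intergenic summits within it lay 497, 494 and 493 bp away, with signals of 556, 24.7 and 134.

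**Figure D4:**
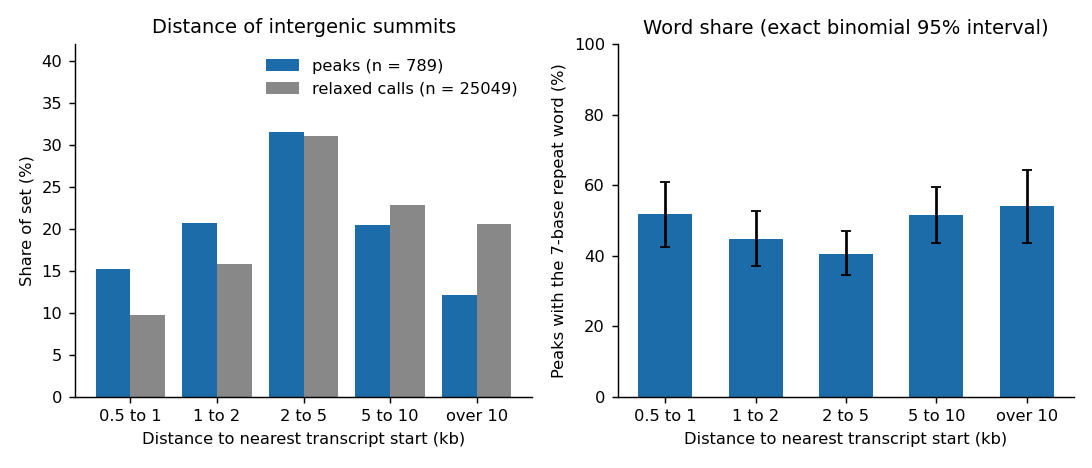
Left, share of the 789 intergenic peaks and of the 25049 intergenic relaxed calls (y, percent) by distance to the nearest transcript start (x, kb). Right, share of peaks with the repeat word at the summit in the same bins with exact binomial 95% intervals, which runs from 40.6% at 2 to 5 kb to 54.2% beyond 10 kb.

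Divergent flanks were more frequent among the peaks. They flanked 267 of 789 peaks (33.8%, 30.5 to 37.3) and 26.4% of relaxed calls, an odds ratio of 1.42 (1.23 to 1.66; Fisher exact, adjusted p = 1.30e-05), which kept its call in all 10 alternatives. Convergent flanks stood at 150 peaks (19.01%) against 21.95% (odds ratio 0.835, 0.697 to 0.9995; Fisher exact, adjusted p = 0.0491), a call lost in 6 of 10 alternatives. The other 372 peaks (47.1%) had tandem flanks. The protein-coding end nearest to the summit was a 5′ end for 459 peaks (58.2%), and for 50.6% of the relaxed calls with a gene on both sides. Median signal was 102.8 with divergent, 93.5 with tandem and 95.04 with convergent flanks, and the word was at 48.7%, 47.3% and 43.3% of those summits. Among all annotated genes the nearest was protein-coding for 518 peaks, a non-coding RNA gene for 255, a tRNA gene for 15 and a pseudogene for 1.

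The word was found at every distance. It stood at 51.7% of 120 peaks at 0.5 to 1 kb, 44.8% of 163 at 1 to 2 kb, 40.6% of 249 at 2 to 5 kb, 51.6% of 161 at 5 to 10 kb and 54.2% of 96 beyond 10 kb. Beyond 5 kb it was at 135 of 257 summits (52.5%) and nearer at 236 of 532 (44.4%), an odds ratio of 1.39 (1.03 to 1.87; Fisher exact, adjusted p = 0.0443). That call was lost in 7 of 13 alternatives, among them replicate 2 alone (1.01), and a split at 2 kb gave 0.958. Median signal lay between 90.9 and 108.7 in all 5 bins. The 3 peaks farthest from any start lay 40404 bp away between CG10651 and CG17571 on 2L (signal 68.4, 26.0 and 42.6 in the replicates, no word), 37481 bp away between vvl, a POU domain gene, and Prat2 on 3L (159.4, 100.1 and 63.6, with the word), and 34944 bp away between NijA and CG43245 on 3L (158.5, 97.4 and 77.0, with the word).

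Intergenic peaks clustered less than intronic peaks. Another conservative summit lay within 2 kb of 319 of 789 intergenic peaks (40.4%, 37.0 to 43.9), beside 47.2% of all peaks and 988 of 1909 intronic peaks (51.8%). The odds ratio against intronic peaks was 0.633 (0.535 to 0.749; Fisher exact, adjusted p = 7.33e-07), and it kept its call in all 11 alternatives. Against promoter peaks (45.4%) it was 0.815 (0.692 to 0.960; Fisher exact, adjusted p = 0.0291), a call lost in 6 of 11 alternatives and turned to 1.09 at an IDR of at most 0.001. Linked to other intergenic peaks only, at gaps of at most 5 kb, 417 peaks stood alone and 372 formed 142 runs of 2 to 7. A conservative summit of any class lay within 5 kb of 487 of the 789 peaks (61.7%).

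The 3 runs of 6 peaks are given with the signal of each peak in order along the arm. One lay between plh and corto, a Polycomb and trithorax cofactor gene, on 3R (239.8, 143.7, 75.4, 60.2, 71.3 and 665.8). One lay between the BTB factor genes lola and psq on 2R (163.1, 77.1, 134.7, 74.3, 10.9 and 344). The peak of 10.9 in it is one of those under 30 that shared their call in both replicates with another peak. One on 2L began with 3 peaks between robo2, a receptor for the guidance cue Slit, and CG43401 (110.6, 96.3 and 90.8), and went on with 3 between CG43401 and CG43402 (343, 115.7 and 89.9). The strongest peak was 6.08, 3.25 and 3.32 times the median of its run in these 3.

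Counted by gaps between protein-coding genes, the 789 peaks fell into 423 gaps, of which 251 held 1 peak and 22 held 5 or more. Those 22 gaps held 152 of the peaks. The gap between NijA, an adhesion protein of the ninjurin family, and CG43245 on 3L held 12, with signals from 62.8 to 477, and 8 had the word. The gap between vvl and Prat2 held 10. These counts are not scaled by width. The 2 gaps were 75047 and 117057 bp wide, with 1.60 and 0.854 peaks per 10 kb, and the gap between lola and psq had 4.11. Both this gap and that between vvl and Prat2 held a peak of signal under 30 that shared its replicate calls with another peak. CG43245 flanked most peaks, 12 to its left and 7 to its right, followed by CG6163 with 14, hng3 with 13, CG13898 and NijA with 12 each, corto with 11, and CG6168, Prat2 and vvl with 10 each. All of these but corto lie on 3L. The 760 protein-coding genes that flanked a peak did so once in 427 cases.

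The chromosome arms differed in how densely they held intergenic peaks. The rule could be met in 39.0 Mb of the 7 arms. Arm 3L had 260 peaks, or 28.7 per Mb of this DNA (Poisson 95% interval 25.3 to 32.4), then 2L 22.5 (19.05 to 26.4), 3R 20.7 (17.6 to 24.2), 2R 17.7 (14.8 to 21.0) and X 15.6 (12.4 to 19.4). Arm 4 had 4 peaks and Y had 0 of its 2.51 Mb. The order was not that of the relaxed calls, which were densest on 3R with 782 per Mb and X with 775, against 643 on 3L. Neighbouring peaks are not independent, so these counting intervals are too narrow. The word was at 50.4% of summits on 3L, 50.6% on X and 42.4% on 2R, and at 0 of the 4 on arm 4.

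The 12 lists of flanking genes are given as counts beside the relaxed calls, with no test, and the number after a gene is the signal of its strongest flanking peak. Genes of the list of GATA and zinc finger developmental factors flanked 61 peaks, 7.73% against 3.54% of relaxed calls. They included salm (697), grn (636) and elB (404). The list also holds dac (386), a regulator of eye and leg development that is of neither type. Genes of the list of Snail family, Sox, T-box and Fox genes flanked 38 (4.82% against 2.25%). The highest in that list were H15 (786), SoxN (363), org-1 (339) and mid (283). It does not hold every gene of these families, and scrt (788), a Snail family gene named after its value was seen, also flanked a peak. Homeobox genes outside the Hox clusters flanked 75 (9.51% against 6.74%), and the highest were cad (817), caup and mirr (782.5) and OdsH (747). The Iroquois neighbours caup and mirr share their peak, which lies 878 bp from the 5′ end of mirr. The peak of OdsH is also shared, with unc-4, another homeobox gene, on its other side. Hox genes flanked 4 peaks (0.507% against 0.451%), namely Antp (173.6), abd-A (94.2) and Dfd (59.2).

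Genes of the list of gap, pair-rule and segment polarity genes flanked 27 (3.42% against 2.21%). They included hh, the Hedgehog ligand, at 491, opa at 403 and wg, the Wnt ligand, at 219.5. The list also holds fz (264), a Wnt receptor and planar polarity gene. The 47 genes of the list of secreted ligands and receptors, which does not hold spz5, flanked 26 (3.30% against 2.46%), with the JAK/STAT ligand genes upd1 and upd3 sharing a peak of 753.5, then hh and the EGF-like ligand gene vn (479). The 30 genes of the bHLH list flanked 5 (0.634% against 0.579%). The strongest peak of each gene that flanked one was 716 for ss, 367 for E(spl)m5-HLH, 366 for E(spl)m7-HLH and 108.7 for tap. That list does not hold every bHLH gene. Among others, Mnt (589), Oli (strongest peak 528), Myc (371) and E(spl)mbeta-HLH (133.3, no word), named after their values were seen, also flanked peaks. Nuclear receptor genes flanked 6 (0.760% against 1.08%), from eg (122.3) through tll (76.9) and knrl (70.0) to Eip75B (69.1).

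The 4 lists of effector genes stood below the relaxed calls. The 77 genes of the list of adhesion and axon guidance surface genes flanked 22 (2.79% against 5.39%). The highest in that list were kek1 (496), 18w (149.2), caps (146.9) and beat-IIIc (139.6). It does not hold every adhesion gene, so its share is that of the listed genes only. Among others, ft (686), NijA (477), Cad96Cb (469) and ds (315), named after their values were seen, also flanked peaks. Odorant, gustatory and ionotropic receptor genes flanked 22 (2.79% against 3.76%), with Gr93a (779), Gr93b (453), Gr47b (385) and Ir67c (227.8). Cuticular protein genes flanked 6 (0.760% against 1.09%), with Cpr35B (263.5), Cpr65Eb and Cpr65Ec at the same peak (98.7) and Cpr100A (76.9). Cytosolic ribosomal protein genes flanked 2 (0.253% against 0.719%), RpS23 (72.8) and RpL22 (57.3).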

How the data were processed

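The data were peak lists of 1 ChIP-seq experiment with 2 replicates on dm6, per the labels. Per the file headers and labels, the authors made ranked and thresholded lists for each replicate and for both together. No aligner or peak caller is given in the sources used here. Each deposited signal value has no stated scale. The deposited ranked lists give −log10 of the global IDR, the irreproducible discovery rate, and every conservative peak had at least 2, an IDR of at most 0.01. Ranked calls below that value were the relaxed calls. Summits were classed with the Ensembl release 115 annotation, and sequence came from the RefSeq release 6 genome, whose lengths held every peak; no summit of the set lay in a RefSeq gene. Shares were compared with 2-sided Fisher exact tests on counts of peaks, adjusted by Benjamini-Hochberg over 8 class comparisons, 4 position comparisons, 28 motifs or all 7-base words, at 0.05. Odds ratios have log-scale 95% intervals, with 0.5 added where a cell was 0. Peaks of one gap or run are not independent. The word scan was tested on simulated data. Replicate values come from the overlapping ranked call with the nearest summit. Named items followed a rule: the 12 strongest peaks, the 5 strongest without the word, the runs and genes with most peaks, the 3 farthest, up to 4 genes per list by signal, the motifs past the threshold and up to 5 words per scan; one item of the rule is not reported here. The peaks, lists, motifs and tests were chosen with earlier results of these data known. Software was scipy 1.17.1, numpy 2.4.6, pandas 2.3.3 and matplotlib 3.10.9 under Python 3.11.15.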

Additional observations from a re-analysis of the deposited data

How the results depend on the processing

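The position limit, annotation, list, IDR limit, windows, flanks, overlap and distances were varied one at a time, and 3 alternatives were added after seeing the data (intergenic flanks, no signal under 30, 1 peak per gap). The word at summits against flanks, the word against promoters, neighbours against intronic peaks and divergent flanks kept their call in every alternative. Replicates share 1 group, and each replicate's own list stood in for leaving out the other. No pairing of samples was possible because there was 1 group. The flank windows belong to the same peaks as the summit windows. The tests of summits against flanks counted all windows separately and did not use this pairing.

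The number of peaks was 476 and 592 without replicate 1 or 2, and 373 at an IDR of at most 0.001. Without replicate 1 or 2, signal above the median gave 1.04 and 0.904 against intronic and 0.8 and 0.777 against promoter peaks. Without either replicate in turn, convergent flanks gave 0.832 and 0.829, the word beyond 5 kb 1.01 and 1.48, and neighbours against promoters 0.775 and 0.957. Start limits moved the word against introns to 0.922 (250 bp) and 0.96 (1000 bp), matching against promoters to 0.883 (250 bp), neighbours against promoters to 0.909 (250 bp) and convergent flanks to 0.925 (1000 bp). With protein-coding genes only, the word against introns was 1, matching 1.05 against introns and 0.897 against promoters, and neighbours against promoters 0.986. In the pooled list these were 0.992, 1, 0.838 and 0.866, and the word beyond 5 kb was 1.29. At an IDR of at most 0.001, matching was 1.14 against introns and 1.11 against promoters, neighbours against promoters 1.09, convergent flanks 0.807, the word beyond 5 kb 1.34, and 1 motif differed. With summits within 500 bp counted once, neighbours against promoters were 0.918, convergent flanks 0.852 and the word beyond 5 kb 1.35. Windows of 25 bp to each side gave 1.14 for the word beyond 5 kb and 2 motifs, and flanks at 250 bp gave 1 motif. The GAGA repeat was more frequent at summits in 6 of 12 alternatives, and flanks at 1000 bp gave 85 more and 4 less frequent words against 86 and 19. Matching against promoters was 1.07 at an overlap of 0.8, neighbours against promoters 0.958 within 5 kb, and the word by distance 0.958 split at 2 kb and 1.39 split at 10 kb. With 1 peak per gap, convergent flanks were 0.846 and a start within 2 kb 0.635. The cause of these changes was not tested. Read depth is unknown, so what it limits cannot be stated.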

Other observations

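In 2 cases a pair of intergenic peaks had the same start and end and differed in summit and signal. One pair lay on X between mamo and ben, with signals of 559 and 254.9, and the other on 2L between jp and brwl, with 489.8 and 2.92. Of the 789 peaks 655 had the same width of 390 bp, and 23 had an interval that reached into a gene although the summit did not. Of the summits 2 lay in annotated transposable elements, beside 635 of the 25049 intergenic relaxed calls. In 5 groups of equal size by signal, from weakest to strongest, the share matched in both replicate lists was 1.90%, 7.59%, 36.9%, 75.9% and 70.9%.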
